A study of Mus musculus with 7 samples.

Results

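The 30 mouse genes described here encode core parts of the Wnt signalling pathway: 10 Frizzled receptors, the co-receptors Lrp5 and Lrp6, the receptor-removing ubiquitin ligases Rnf43 and Znrf3, 3 Dishevelled adaptors, 4 destruction complex genes (Apc, Axin1, Axin2 and Gsk3b), beta-catenin (Ctnnb1), 4 TCF/LEF factors and 4 TLE corepressors. They were chosen by name, with earlier results of these data known. Each Argonaute crosslink position was given to a gene on the same strand with GENCODE M21, which uses the mm10 build. Of the 30 genes, 13 held at least 1 position, and together they held 62 of the 14054 positions in the table, which lay in 4940 genes. Gsk3b, Apc and Tle4 held 37 of the 62 positions (59.7%).

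The positions come from PAR-CLIP of Argonaute, the protein that carries microRNAs. Explants of retina, taken from CD-1 mice on postnatal day 0, were kept for 24 h in medium with 0.1 mM 4-thiouridine, a uridine analogue that RNA takes up, and 20% horse serum, and were then exposed to 365 nm light at about 300 mJ/cm2, which joins that base to a touching protein. All 7 libraries shared this strain, age and treatment, and each was made from 6 pooled retinas: 5 were made with the Argonaute antibody 2A8 and 2 with an IgG1 control, which were not analysed here. The table pools the Argonaute libraries and gives for each position the number of them that share it, from 2 to 5, so that number is the only measure of recurrence, no group difference was tested and the read depth is unknown.

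In Wnt signalling, a secreted ligand binds a Frizzled receptor together with Lrp5 or Lrp6 and draws Dishevelled and Axin to the membrane. Without a ligand, the destruction complex of Axin, Apc and the kinase Gsk3b marks beta-catenin for breakdown. When the complex is held at the membrane, beta-catenin builds up, enters the nucleus and joins TCF/LEF factors on DNA, where TLE proteins otherwise keep target genes off. In the eye the pathway is known for its part in pigment epithelium and ciliary margin fate and in the growth of retinal vessels. A microRNA guides Argonaute to an mRNA mainly through its seed, bases 2 to 8, and the crosslinked base of a PAR-CLIP site often lies just before the stretch that pairs with the seed.

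The microRNAs whose seed matches began 0 to 3 nt after a crosslink in these genes are shown first, with the seed in capitals. They are listed by sequence match only, and whether these microRNAs were bound there was not tested. Each line gives 1 member of its family from RefSeq (GRCm38.p6), written 5′ to 3′.
miR-15a-5p: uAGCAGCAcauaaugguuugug
miR-17-5p: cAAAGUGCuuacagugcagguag
miR-18a-5p: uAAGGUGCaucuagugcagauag
miR-30a-5p: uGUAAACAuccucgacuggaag
miR-92a-3p: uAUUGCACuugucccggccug
miR-100-5p: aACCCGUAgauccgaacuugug
miR-129-5p: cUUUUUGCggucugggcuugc
miR-153-3p: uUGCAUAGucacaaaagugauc
miR-335-5p: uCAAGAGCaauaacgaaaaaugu
The tenth family was miR-124, searched by its target motif GTGCCTT, and it was the only one of the 10 found at 2 of these positions.

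Of the 11 matching sites, 9 follow as 26 nt of spliced mRNA from GENCODE M21 transcripts, 5′ to 3′, with the crosslinked T as base 11 and the 7 bases that pair with the seed in capitals (mm10). The other 2, of miR-129 and miR-153, lay in Apc and are described with that gene, with no sequence.
Fzd3, chr14:65235651-65235676, minus strand, miR-30: ctctgccacatTGTTTACttttttaa
Fzd5, chr1:64731110-64731135, minus strand, miR-99/100: tagtgacttttgaTACGGGTtggtgc
Fzd5, chr1:64731967-64731992, minus strand, miR-124: atcctttttcttgGTGCCTTattggt
Znrf3, chr11:5280724-5280749, minus strand, miR-124: tggcttcctctGTGCCTTtggcttct
Gsk3b, chr16:38241254-38241279, plus strand, miR-335: aggtttgttttGCTCTTGaccagtgc
Gsk3b, chr16:38244320-38244345, plus strand, miR-18: ggcagaagaatGCACCTTctctccca
Tle1, chr4:72157607-72157632, minus strand, miR-25/92: gtattaggaatGTGCAATgacttata
Tle4, chr19:14449684-14449709, minus strand, miR-17: ctcctcctcataGCACTTTgcgctgt
Tle4, chr19:14448466-14448491, minus strand, miR-15/16: tacagtgccttTGCTGCTatggatca
In 6 of these 9 windows the match began 1 nt after the crosslink, and in the others it began 2 or 3 nt after it. The Fzd5 miR-124, Gsk3b miR-335 and Tle4 miR-15/16 matches were 8mers, with an A after the 7 paired bases.

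Positions in 3 or more libraries were not confined to seed matches. The next windows, laid out in the same way and with those of Apc and the miR-216b position of Tle4 left out, have no 7mer of a searched family 0 to 3 nt after the crosslink, and the capital marks the crosslinked T.
Fzd3, chr14:65235700-65235725, minus strand, 5 libraries: aactgtcattTgctcgctatttcata
Tle4, chr19:14449530-14449555, minus strand, 4 libraries: gaacctgtgaTaccaaatcttcagct
Fzd3, chr14:65253004-65253029, minus strand, 3 libraries: tgtgccaagaTttgccttacaatact
Znrf3, chr11:5276432-5276457, minus strand, 3 libraries: tacatgataaTtgcacacagatttta
Gsk3b, chr16:38243353-38243378, plus strand, 3 libraries: tgtatgtaaaTatgtggacccaggaa
Gsk3b, chr16:38245274-38245299, plus strand, 3 libraries: tgaatgccttTgtgactgaatttttt
Ctnnb1, chr9:120957195-120957220, plus strand, 3 libraries: gaggactcaaTaccattccattgttt
Shorter matches were present in some of them, but such matches are frequent. Over the table, 44.4% of exonic positions had a match to bases 2 to 7 starting 1 to 4 nt after (36.4% in these genes). A match to bases 3 to 8 starting 0 to 3 nt after was present at 38.2% (32.7%). Both shares include matches within a 7mer. The second Fzd3 window held the 6 bases that pair with miR-124 bases 2 to 7, starting 2 nt after the crosslink. The Tle4 window held the 6 bases that pair with miR-9 bases 3 to 8, starting 1 nt after it, and the 7mer that follows this crosslink followed 50 crosslinks of the whole table, rank 26 of 3864.

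The study is about miR-216b, and its second table lists sites for miR-216a or miR-216b that lie near crosslinks. Its only entry in these genes lay in Tle4, at chr19:14449273-14449278 on the minus strand, and is shown in capitals beside the mature microRNA with its seed in capitals.
miR-216b-5p: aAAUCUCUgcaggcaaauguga
Tle4, chr19:14449273-14449298, minus strand: atgtagactattgactgtatAGAGAT
Fzd5, chr1:64731114-64731143, minus strand: gAGAGATTtagtgacttttgaTACGGGTtg
The Tle4 entry began 10 nt after a crosslink in 3 libraries, which is base 11 of its window. It pairs with bases 3 to 8 of miR-216b and is not a full 7mer. The Fzd5 line shows a full miR-216b 7mer that began 17 nt before the crosslink of the miR-99/100 match, which is base 19 of those 30 nt, and the table links no entry to it. Of all crosslinked genes, 6.86% had an entry, and of the 13 crosslinked Wnt pathway genes 1 had.

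Across the table as a whole, 21.6% of the 22028 protein-coding genes had a crosslink, beside 13 of these 30, and 9.28% had one in 3 or more libraries, beside 6 of 30 (Fzd3, Znrf3, Apc, Gsk3b, Ctnnb1 and Tle4). The median transcript length was 5161 nt for the 13 genes with a crosslink, 3663 nt for the 17 without and 2539 nt for all protein-coding genes. The 30 genes were chosen with earlier results of these data known. The parts of length and of that choice in these counts were not tested. RNA levels were not measured here, so a gene with no position may be unbound or have too little RNA to be seen, and in whole retinas fewer cells of a type and less RNA per cell cannot be told apart. Cell type markers were looked up too. Crosslinks were present in 16 of 19 genes of retinal progenitors and neurons and in 1 of 5 vessel markers (Kdr). They were present in 0 of 6 for pigment epithelium, 0 of 5 for microglia and 0 of 4 for lens. With 21.6% of protein-coding genes crosslinked, such small counts cannot show that a cell type was absent.

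**Figure D1:**
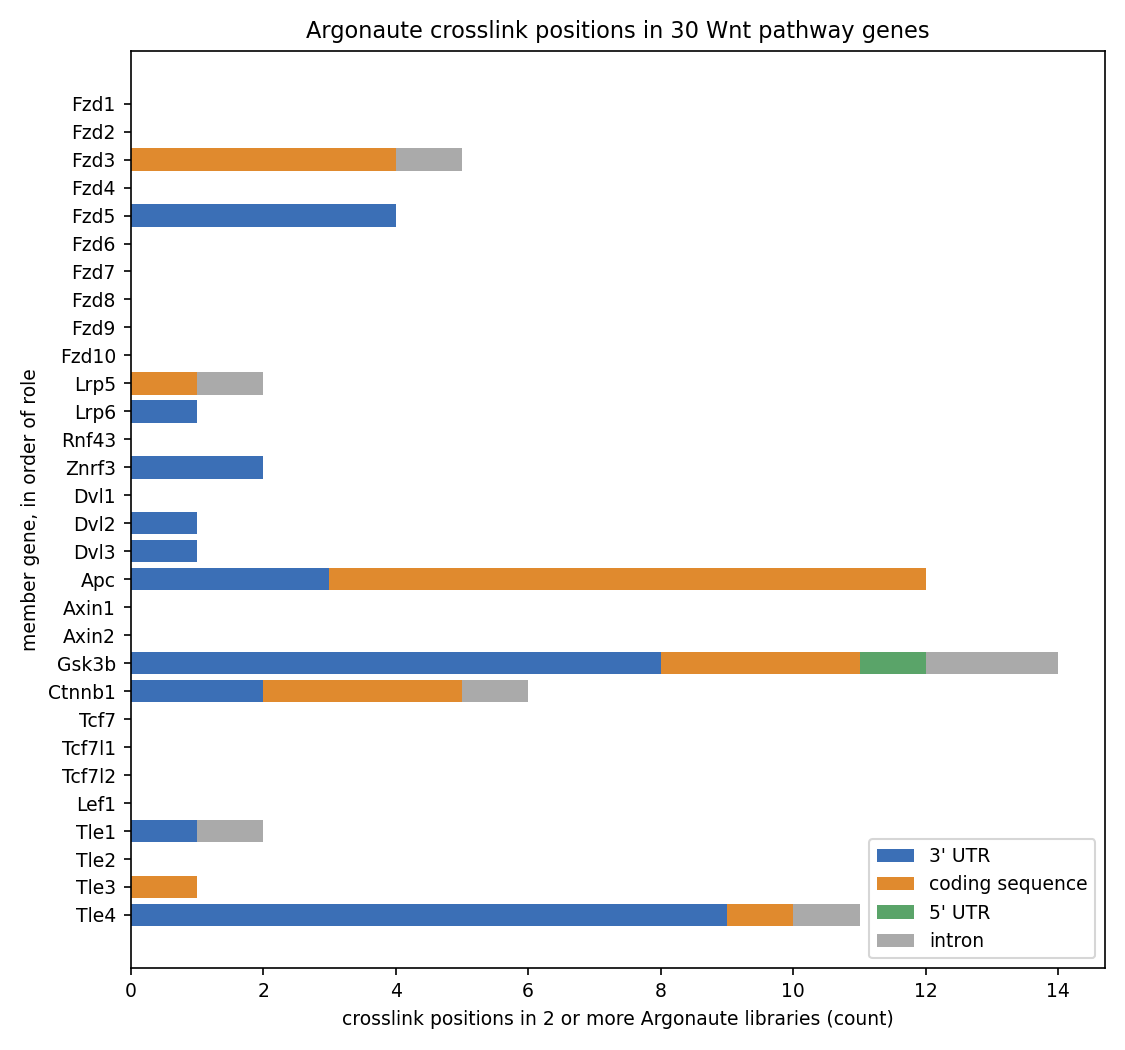
Bars give the number of crosslink positions found in 2 or more Argonaute libraries for each of the 30 genes, coloured by where the positions lay. Gsk3b has 14, Apc 12 and Tle4 11, Apc is mostly coding sequence and Tle4 mostly 3′ UTR, and 17 genes have none.

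Of the 10 Frizzled genes, the receptors that bind Wnt ligands, Fzd3 and Fzd5 had crosslinks and Fzd1, Fzd2, Fzd4, Fzd6, Fzd7, Fzd8, Fzd9 and Fzd10 had none. Fzd3 (ENSMUSG00000007989.7, chromosome 14, 65192449 to 65262463, minus strand), a receptor known for axon growth and planar cell polarity, had 5 positions. All 4 of its exonic positions lay in coding sequence, while its 3′ UTR of 10270 nt, in the transcript Fzd3-202, held 0. Exon 4 of 7 carried 3 of them close together. The position at 65235715, in codon 201 of 666, was found in all 5 libraries. The next, 33 nt on at 65235682, was found in 2. The last, 16 nt further at 65235666 in codon 218, was found in 3 and is the one followed by the miR-30 7mer. This 7mer began 1 nt after the codon 218 crosslink and 17 nt after the crosslink before it, and the crosslink shared by the most libraries had no 7mer of a searched family within 20 nt. A further coding position, at 65253019 in codon 38 in exon 2, was found in 3 libraries, and an intronic one at 65255138 in 2. The coding sequence of Fzd3 held 2 positions per kb and that of Gsk3b 2.38, beside a median of 0.675 over the 1764 genes with a coding position.

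Fzd5 (ENSMUSG00000045005.9, chromosome 1, 64730558 to 64737751, minus strand), a Frizzled receptor needed for normal eye development, had the opposite layout. Its 4 positions all lay in the 3′ UTR, which is 4285 nt long and forms part of exon 2 of 2, and each was found in 2 libraries. They stood 2247, 2861, 3581 and 3718 nt into the UTR. That at 2861 nt had the miR-124 8mer and that at 3718 nt the miR-99/100 7mer shown above, each starting 3 nt after the crosslink. The one at 2247 nt (64732596) was followed at 2 nt by 6 bases that pair with miR-9 bases 2 to 7, and the 7mer after this crosslink ranked 4 in the table by frequency, at 163 positions. The one at 3581 nt (64731262) had no match to a searched family. Fzd5 had 0.933 3′ UTR positions per kb, close to the median of 0.912 over the 3219 genes with such a position.

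Both co-receptors, which are phosphorylated when the ligand binds and then hold Axin, had crosslinks, none in more than 2 libraries. Lrp5 (ENSMUSG00000024913.16, chromosome 19, 3584828 to 3686564, minus strand) had a coding position at 3585161, in codon 1572 of 1614 in exon 23 of 23, with no 7mer within 20 nt, and an intronic one at 3654730. Lrp6 (ENSMUSG00000030201.15, chromosome 6, 134446476 to 134566965, minus strand) had 1 position, at 134450362, 424 nt into a 3′ UTR of 4310 nt. Directly after that crosslink stood 6 bases that pair with miR-124 bases 2 to 7.

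Rnf43 and Znrf3 are membrane ubiquitin ligases that take Frizzled receptors off the cell surface. Rnf43 had no position. Znrf3 (ENSMUSG00000041961.14, chromosome 11, 5276324 to 5444847, minus strand) had 2, both in 3′ UTRs but of different transcripts. The position at 5276447, in 3 libraries, lay 3277 nt into the 3400 nt UTR of Znrf3-201 and had no 7mer within 20 nt. The position at 5280739, in 2 libraries, lay 55 nt into the UTR of a shorter annotated transcript, in a stretch that is intron in Znrf3-201, and carried the miR-124 7mer. The recurrent position and the one with a seed match were thus different.

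Among the Dishevelled adaptors, which pass the signal from Frizzled to the destruction complex, Dvl1 had no position and Dvl2 and Dvl3 had 1 each, in 2 libraries. The Dvl2 position (ENSMUSG00000020888.16, chromosome 11, 70009712, plus strand) lay 120 nt into a 3′ UTR of 2610 nt. No 7mer began 0 to 3 nt after it, but a miR-128 8mer began 3 nt before the crosslinked base, overlapping a miR-27 7mer that began 2 nt before it, and a miR-138 8mer began 9 nt after it. The Dvl3 position (ENSMUSG00000003233.12, chromosome 16, 20531632, plus strand) lay 116 nt into the 155 nt UTR of Dvl3-201, which is intron in another annotated transcript, and a miR-204 8mer began 9 nt before it. In both genes the nearby 8mers thus began before the crosslink or several nt beyond it.

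The destruction complex held the largest number of positions of any role in the list, 26 of 62, all in Gsk3b and Apc. Axin1 and Axin2, the scaffolds of the complex, had none. Gsk3b (ENSMUSG00000022812.14, chromosome 16, 38089001 to 38246084, plus strand), the kinase that phosphorylates beta-catenin, had 14 positions, and 63 genes (1.28% of crosslinked genes) had as many or more. They covered every part of the gene: 1 in the 5′ UTR, 3 in coding sequence, 8 in the 3′ UTR and 2 in introns, and 105 genes had as many 3′ UTR positions or more. Gsk3b was the only one of the 30 with a 5′ UTR position, at 38090319 in exon 1 in 2 libraries. The intronic positions lay 124 nt apart, at 38120846 in 2 libraries and 38120970 in 3, the latter being the only intronic position of the 7 in these genes that reached 3 libraries.

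In the coding sequence of Gsk3b, positions at 38187928 in codon 199 of 420, 38220118 in codon 352 and 38220141 in codon 360 were each found in 2 libraries and had no 7mer within 20 nt. In its 3′ UTR of 5515 nt, the positions stood at 695, 1383, 2702, 2794, 2816, 2937, 3761 and 4715 nt. Those at 2794, 3761 and 4715 nt were found in 3 libraries and the others in 2. A stretch of the UTR from 2702 to 2937 nt thus held 4 of the 8, and none of these 4 had a seed match 0 to 3 nt after it. The miR-335 8mer belonged to the position at 695 nt and the miR-18 7mer to the one at 3761 nt. At the position 4715 nt in, a miR-26 8mer began 14 nt before the crosslink. Of the 3 recurrent UTR positions of Gsk3b, 1 therefore had a 7mer 0 to 3 nt after it.

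Apc (ENSMUSG00000005871.15, chromosome 18, 34220924 to 34322552, plus strand), the large scaffold of the complex and a tumour suppressor, had 12 positions, and 100 genes (2.02%) had as many or more. Of these, 9 lay in coding sequence, a number that 15 genes of the table reached or passed, and 3 in the 3′ UTR. Its coding sequence is long, with 2842 codons, and held 1.06 positions per kb. Exons 5, 14 and 15 carried 1 each, at 34272451 in codon 143, 34306310 in codon 556 and 34310726 in codon 591, all in 2 libraries. The codon 556 position had a miR-129 7mer starting 2 nt after it, and a miR-124 8mer began 8 nt before the codon 591 position.

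The other 6 coding positions of Apc lay in exon 16, the last. The position at 34312899, in codon 949, was found in all 5 libraries, and that at 34314847, in codon 1599, in 4. Neither had a 7mer of a searched family within 20 nt. A miR-9 match to bases 2 to 7 began 2 nt after the first, and a let-7 match to bases 2 to 7 began 1 nt after the second. The 7mer after the first crosslink ranked 4 in the table by frequency, at 163 positions, and that after the second ranked 181, at 6. The remaining ones, at 34313667, 34315446, 34316189 and 34318475 in codons 1205, 1798, 2046 and 2808, were found in 2 libraries, and a miR-216b 7mer with no linked entry in the second table began 20 nt after the last of them. In the 3′ UTR of 3971 nt, the positions stood 64, 269 and 925 nt in. They were found in 2, 3 and 3 libraries, and the third, at 34319506, had a miR-153 7mer starting 1 nt after it. In Apc the positions shared by the most libraries were thus coding ones with short matches, of a kind present at 44.4% of all exonic positions.

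**Figure D2:**
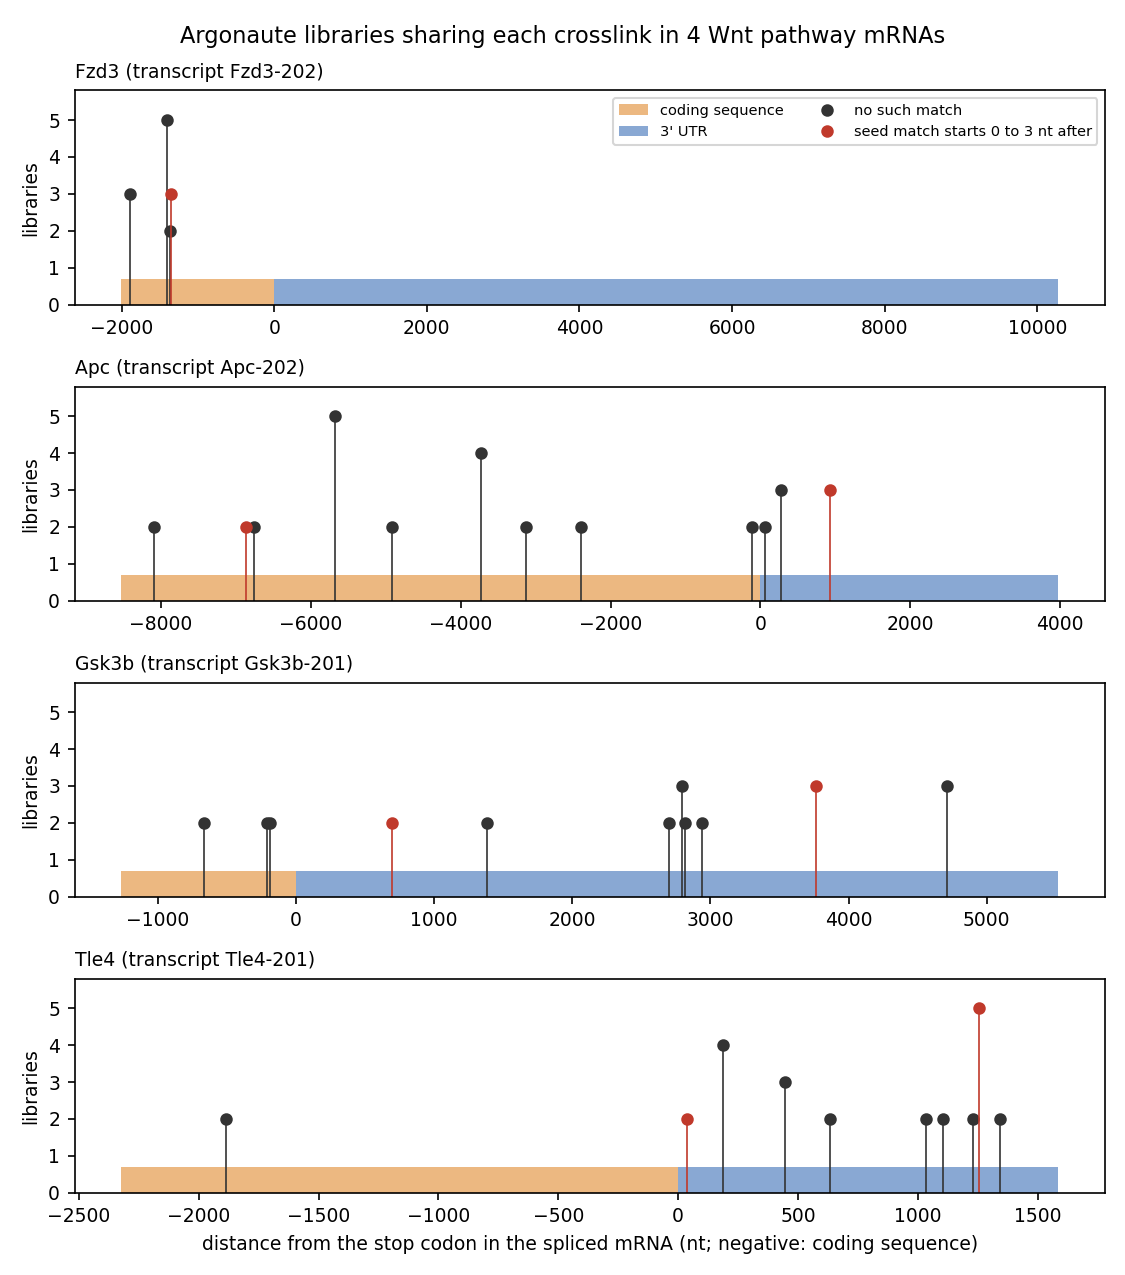
Each stem is a coding or 3′ UTR crosslink position of Fzd3, Apc, Gsk3b or Tle4, placed by its distance in nt from the stop codon along the spliced mRNA (coding sequence and 3′ UTR as bars), and its height is the number of Argonaute libraries that share it. The 5′ UTR position of Gsk3b is not drawn. Red marks a 7mer seed match starting 0 to 3 nt after the crosslink: the 5-library positions of Fzd3 and Apc are coding and have none, and that of Tle4 is in the 3′ UTR and has one.

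Ctnnb1 (ENSMUSG00000006932.17, chromosome 9, 120929216 to 120960507, plus strand) encodes beta-catenin, the protein that the destruction complex breaks down and that carries the signal to the nucleus. It had 6 positions: 3 in coding sequence, 2 in the 3′ UTR and 1 in an intron at 120945859. None of the 5 exonic ones had a 7mer starting 0 to 3 nt after it. A pair in exon 9 of 15 lay 16 nt apart, at 120955411 in codon 423 of 781 and 120955427 in codon 428. The second of the pair was followed by 6-base matches of miR-25/92 and miR-137, starting 1 and 2 nt after it. The position at 120957205, in codon 594 in exon 11, was found in 3 libraries, and all others in 2. The 3′ UTR positions, at 120959563 and 120960417, lay 46 and 900 nt into a UTR of 990 nt, near its ends. Ctnnb1 had 1.28 coding and 2.02 3′ UTR positions per kb, both above the medians of 0.675 and 0.912 over genes with such positions.

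The 4 TCF/LEF factors, Tcf7, Tcf7l1, Tcf7l2 and Lef1, which bind DNA with beta-catenin, had no position. Their partners, the TLE corepressors, had 14, of which Tle4 held 11, Tle1 held 2 and Tle3 held 1, while Tle2 had none. Tle1 (ENSMUSG00000008305.18, chromosome 4, 72117142 to 72200919, minus strand) had a position at 72157622 in the 3′ UTR of Tle1-205, in a stretch that is intron in Tle1-202, with the miR-25/92 7mer, and an intronic position at 72162424. A further position in 2 libraries, at 72108787, lay 8355 nt past the annotated end of Tle1 and was not counted. Tle3 (ENSMUSG00000032280.16, chromosome 9, 61372366 to 61418497, plus strand) had 1 position, at 61393243 in codon 92 of 782, with a miR-124 match to bases 2 to 7 starting 3 nt after it. Each of these was found in 2 libraries.

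Tle4 (ENSMUSG00000024642.17, chromosome 19, 14448150 to 14598051, minus strand) had 9 positions in its 3′ UTR of 1584 nt, or 5.68 per kb, beside 2.02 for Ctnnb1, 1.45 for Gsk3b, 0.933 for Fzd5 and 0.755 for Apc. Dvl3 had 6.45 per kb, from 1 position in 155 nt. No such value is given for Tle1 and Znrf3, whose positions lay in UTRs of different transcripts. In the table, 66 genes had as many 3′ UTR positions or more. In order along the UTR they stood at 35, 189, 446, 634, 1035, 1106, 1229, 1253 and 1344 nt. The position at 189 nt was found in 4 libraries, that at 446 nt in 3, that at 1253 nt in all 5 and the other 6 in 2. The 5-library position, at 14448481, was the only one of the 3 such positions in these genes to be followed by a seed match: its miR-15/16 8mer began 1 nt after the crosslink, and a miR-124 7mer began 6 nt before it.

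Around the other Tle4 positions, the miR-17 7mer belonged to the one 35 nt into the UTR. A miR-103 8mer began 1 nt before the crosslinked base at 14448390, 1344 nt in, and a miR-183 7mer began 7 nt before that at 14448628, 1106 nt in. The position at 446 nt was the one linked to the miR-216b entry. Tle4 also had a coding position at 14517929, in codon 145 of 773 in exon 7 of 20, and an intronic one at 14507036, each in 2 libraries. The coding position was followed at 1 nt by 6 bases that pair with miR-124 bases 3 to 8. The Tle4 UTR thus held 7mers or 8mers of 5 families near its crosslinks, 2 of them starting 0 to 3 nt after.

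By annotation class, 32 of the 62 positions lay in 3′ UTRs (51.6%, exact 95% binomial interval 38.6 to 64.5), beside 52.1% of all positions in the table. Coding sequence held 22 (35.5%, 23.7 to 48.7), beside 20.9%, and introns held 7 (11.3%, 4.66 to 21.9), beside 17.9%. The 5′ UTR of Gsk3b held 1, and noncoding exons held 0 of 62, for which the exact interval allows a share of up to 5.78%. Intergenic positions lie in no gene, so the 62 could hold none, while they made up 3.86% of all positions. The interval of the coding share lay above the value for all positions, but this rested on Apc and Fzd3, with 9 and 4 of the 22 coding positions. Without Apc the coding share was 26% (14.6 to 40.3) and without Fzd3 31.6% (19.9 to 45.2), and both intervals held 20.9%. Without any other of the 13 genes in turn, the interval stayed above it. Intervals cover counting error only, and positions of a gene share its RNA and are not independent.

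By recurrence, 46 positions were found in 2 libraries, 11 in 3, 2 in 4 and 3 in 5. The share in 3 or more was 25.8% (16 of 62, 15.5 to 38.5), beside 25.6% of all positions. It was 28.1% (13.7 to 46.7) of the 3′ UTR positions and 27.3% (10.7 to 50.2) of the coding positions of these genes, beside 32.9% and 21.7% over the table. The intervals of both classes held the table's values. The positions in 4 or 5 libraries included 3 coding ones, at codon 201 of Fzd3 and codons 949 and 1599 of Apc. The others of these 5 were the UTR positions of Tle4 at 189 and 1253 nt. Among positions in 3 or more libraries, 6 of 16 (37.5%) were coding, beside 17.7% of such positions in the table. In 3′ UTRs lay 9 of 16 (56.2%), beside 67%. These few positions come from few genes, and the differences were not tested.

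A 7mer of 1 of the 67 families searched began 0 to 3 nt after 11 of the 55 exonic positions (20%, 10.4 to 33), beside 28.9% of all exonic positions. In 3′ UTRs it was 9 of 32 (28.1%, 13.7 to 46.7), beside 32.6%, and in coding sequence 2 of 22 (9.09%, 1.12 to 29.2), beside 22.9%: the miR-30 7mer of Fzd3 and the miR-129 7mer of Apc. Among positions in 3 or more libraries it was 4 of 15 (26.7%, 7.79 to 55.1), beside 44.8%. All of these shares were below those of the table, and each interval held the table's value. All 55 positions lay on a T, the base that 4-thiouridine replaces, as did all 10989 exonic positions with sequence in the whole table.

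**Figure D3:**
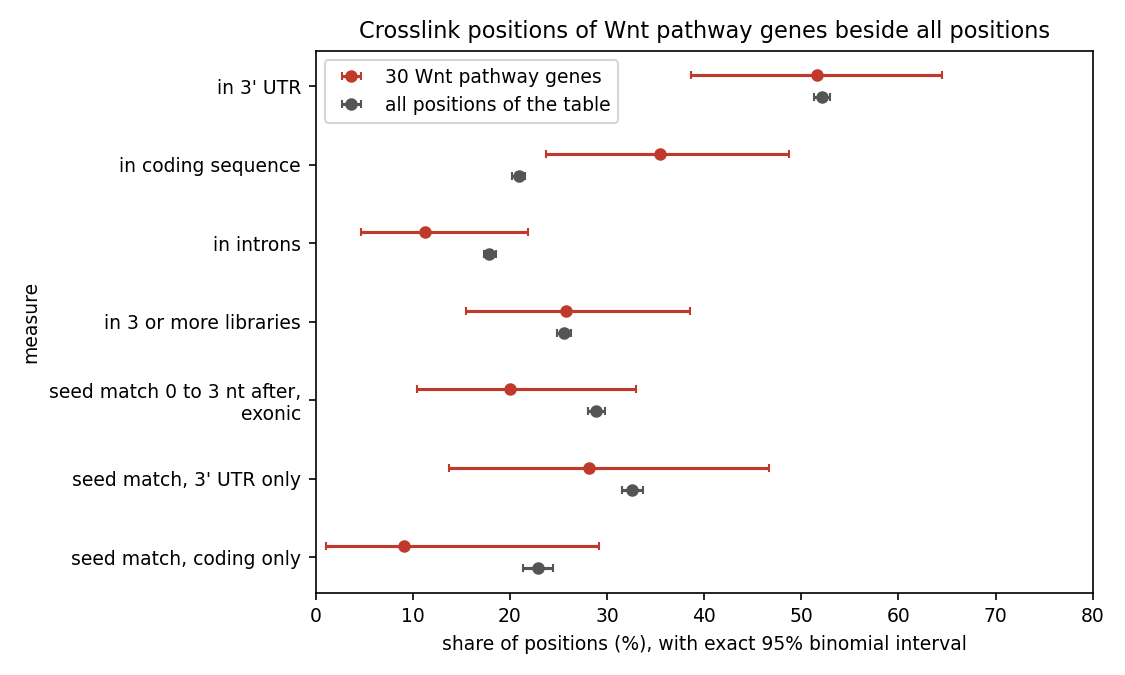
Points give the share of positions (%) in each class, in 3 or more Argonaute libraries and with a seed match starting 0 to 3 nt after the crosslink, for the Wnt pathway genes (red) and all positions (grey), and bars are exact 95% binomial intervals. The coding share of the Wnt pathway genes, 35.5%, has an interval that lies above the 20.9% of all positions, though not without Apc (26%, 14.6 to 40.3) or without Fzd3 (31.6%, 19.9 to 45.2), and the other red intervals hold the grey value.

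The families at these positions were common and rare ones in the table. With starts of 0 to 3 nt, miR-124 was the most frequent of all families, at 342 positions, miR-17 came next with 292 and miR-15/16 ranked 4 with 259. The miR-30 family had 194 and miR-25/92 had 138. The miR-18 family had 76, miR-153 had 47 and miR-335 had 29, while miR-99/100 had 7 and miR-129 had 6. The Fzd5 miR-99/100 match and the Apc miR-129 match were thus among few of their kind. Of the 342 miR-124 positions, 337 had a match that began 1 nt after the crosslink, as in Znrf3. For miR-99/100 this held for 6 of 7. Both Fzd5 matches began 3 nt after it, away from that usual spacing.

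Most seed matches in these genes did not begin just after a crosslink. The 3′ UTRs of the 30 highest-ranked transcripts, 65847 nt in all, held 395 matches of the 67 families, and 7 of these began 0 to 3 nt after a crosslink. For miR-15/16 there were 20 matches in 11 genes: 6 in Fzd3, 3 in Lrp6, 2 each in Fzd8 and Axin2, and 1 each in Fzd1, Fzd5, Rnf43, Dvl1, Dvl2, Gsk3b and Tle4. That of Tle4 was the only one that began 0 to 3 nt after a crosslink. For miR-124 there were 8 matches in 6 genes, and 1, in Fzd5, began at that distance, while that of Tle4 lay near a crosslink but began 6 nt before it. The other matches include those in genes with no position at all, where RNA level and binding cannot be told apart.

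Beyond the 30 genes, 100 other genes of the pathway were found in the annotation, and 38 of them had a crosslink (38%, 28.5 to 48.3), beside 21.6% of all protein-coding genes. These 38 genes held 121 positions in all. The list was chosen with earlier results of these data known. The part of that choice, of transcript length and of RNA level in the 38% was not tested. Of the 21 genes for Wnt ligands and their secretion, 0 had one. Of 25 secreted and membrane modulators, 4 had: Lgr4, a receptor for R-spondins, had 5 positions and Dkk3, a Dickkopf family member, had 3, while Lgr5 and Tspan12 had 1 each. Among 20 destruction complex genes and kinases, 15 had positions, led by Csnk1a1, the casein kinase that primes beta-catenin for Gsk3b, with 10, and by Amer2 and Tnks2 with 6 each, and Tnks and Fbxw11 had 5 each. Tnks and Tnks2 are tankyrases, enzymes that mark Axin for breakdown, and Tnks had 2 positions in 3 libraries, 1 with a miR-30 7mer starting 1 nt after it and 1 with a miR-26 8mer starting at the crosslinked base. Of 15 nuclear partners 10 had positions, with 5 in the kinase Nlk, and of 10 planar polarity genes 6 had, with 8 in Daam1, which binds Dishevelled, and 4 in Celsr2. Of 5 known targets of the pathway, Ccnd1 had 15 and Mycn had 8, and of 4 other receptors Ryk had 1. The destruction complex genes and kinases held 51 of the 121 positions, and the known targets 23.

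**Figure D4:**
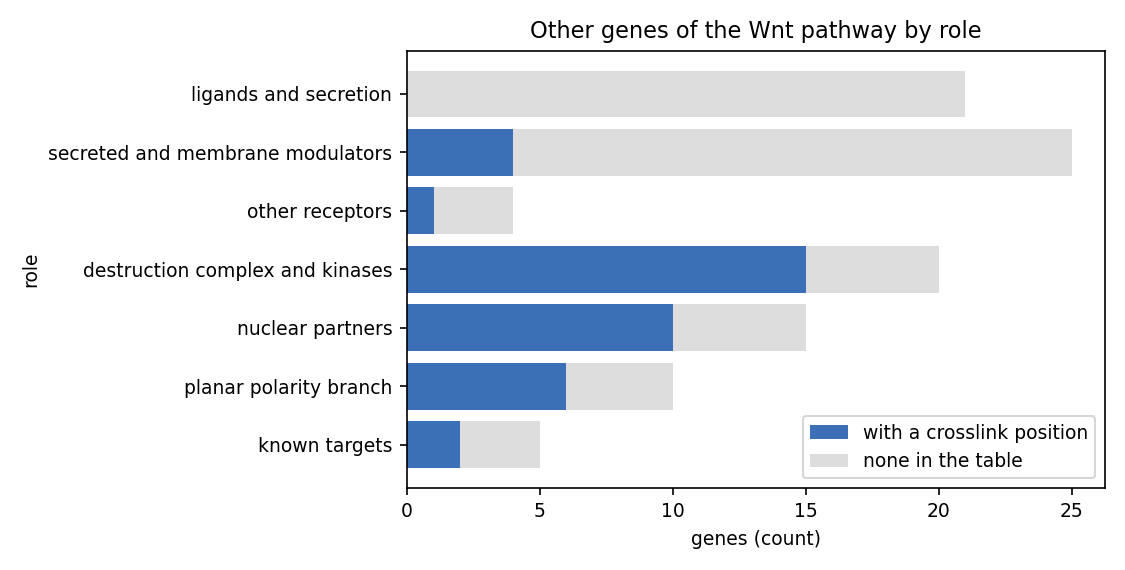
Bars give the number of other Wnt pathway genes in each role, with the blue part those that have a crosslink position. The bar of ligands and secretion, 21 genes, has no blue part, and that of destruction complex genes and kinases has 15 of 20.

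The other Wnt pathway genes shared several families with the 30. Of their positions, 67.8% (58.7 to 76) lay in 3′ UTRs, beside 52.1% of all positions, and 17.4% (11.1 to 25.3) in coding sequence, beside 20.9%. Their coding share was thus below the table's value, while that of the 30 genes was above it, and the difference between the lists was not tested. The share in 3 or more libraries was 33.9% (25.5 to 43), beside 25.6%, and 37.1% (27.9 to 47.1) of 105 exonic positions had a seed match 0 to 3 nt after the crosslink, beside 28.9%. The 3′ UTR interval lay above the table's value, and the other 3 intervals held it. Mycn had a miR-18 8mer and a miR-30 7mer at positions in 4 libraries (12936156 and 12936249) and a miR-101 8mer at one in 5 (12936451), all on chromosome 12. Csnk1a1 had a miR-30 8mer at a position in 4 libraries and miR-153 and miR-17 7mers at positions in 5. The miR-15/16 7mer of Ccnd1 began at the crosslinked base itself, in 4 libraries, and Ccnd1 had further positions in 4 and 5 libraries with no match. Dkk3 had 2 positions in 5 libraries, 1 of them with a miR-25/92 8mer.

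Of the remaining positions in 4 or 5 libraries, those of Rnf146 (coding, miR-9 8mer), Daam1 (miR-183 7mer) and Vangl2 (miR-128 8mer, overlapping a miR-27 7mer) had a match, and those of Amer2, Fbxw11, Nlk and Tnks2 in 3′ UTRs had none. That of Ryk was intronic. Entries for miR-216 were present in Amer2, for miR-216a, and in Csnk1a1, for miR-216b. Each was linked to a crosslink in 2 libraries and, like that of Tle4, was not a full 7mer.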

How the data were processed

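PAR-CLIP was done on 5 Argonaute and 2 IgG libraries of mouse retina. Reads were handled with CASAVA 1.8.2, STAR and bedtools on mm10, per the submitters' processing notes. The rest of that work is not given in the sources used here. Each deposited score of a crosslink position counts the samples in which it was found (2 to 5), per the file headers. The miR-216 table has no header, and a crosslink of equal score lay near each of its 404 entries. The tables carry no values per library, and read depth is unknown.

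Members and gene lists were chosen with earlier results of these data known. Same-strand GENCODE M21 annotation was used, and where transcripts differed a 3′ UTR came before coding sequence, then 5′ UTR, noncoding exon and intron, with exons of nonsense-mediated decay transcripts taken as noncoding. Sequence came from spliced transcripts, so intronic positions have none. Of 73 microRNA families, 67 were searched for 7mers pairing with bases 2 to 8 that began 0 to 3 nt after the crosslinked base. Of these, 66 were read from RefSeq and miR-124 was searched by its motif. Entries of the miR-216 table were linked to crosslinks within 20 nt. Intervals are exact 95% Clopper-Pearson. Annotation and search were tested on simulated data (Python 3.11.15, scipy 1.17.1, matplotlib 3.10.9).

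Every member with a crosslink is named. Of the other Wnt pathway genes, those with a miR-216 entry, those with a position in 4 or 5 libraries, the 10 with the most positions and up to 2 per role are named, and Lgr5 and Tspan12 were added as the rest of a small count. Alternatives changed the class order, gene assignment, number of libraries, merging of close positions, match start and type, and linking distance.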

Additional observations from a re-analysis of the deposited data

How the results depend on the processing

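The 3′ UTR share, the coding share and the share in 3 or more libraries stayed within their 95% intervals under every alternative run. The 3′ UTR share of 51.6% ranged from 48.4% with the highest-ranked transcript only to 58% without Apc. The coding share of 35.5% was 26% without Apc and 31.6% without Fzd3, with intervals that then held the 20.9% of the table. These alternatives, which leave out a gene or use 1 transcript, were chosen after seeing the data. Counts moved with the number of libraries. With 3 or more, 6 of the 30 genes (13 with 2 or more) had a crosslink. Of the 100 other Wnt pathway genes, 20 had one (38 with 2 or more), beside 9.28% (21.6%) of all protein-coding genes. The seed match share of 20% became 41.8% anywhere within 20 nt (49% over the table), 36.4% with 6mers or longer (44.4%) and 5.45% with 8mers only (14.7%), and it stayed below the table's share in each. The miR-216 count fell from 1 gene to 0 when entries were linked within 5 nt and to 0 with a full 7mer only. No paired analysis was possible because the tables pool the libraries, and likewise none could be left out. Unknown depth and RNA level limit what an absent position shows.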
